A study of Mus musculus with 12 samples.

Results

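Sox5, Sox6 and Sox9 are the SOX trio, the transcription factors that switch on the cartilage program. They were taken by name as 3 of the 24391 genes in the count files, and all 3 passed the filter on low counts in every comparison. Their RNA was followed in the anterior hard palate, the front of the bony roof of the mouth, of C57BL/6 mouse embryos. Controls labelled wild type were compared with embryos labelled Shox2Cre;R26RFgf8, on embryonic day 14.5 (E14.5) or 16.5 (E16.5), with 3 samples in each of the 4 groups. In the mutants, Cre made under the control of Shox2, a homeobox gene of the anterior palate, switches on an Fgf8 transgene held at the Rosa26 locus. Fgf8 is a secreted fibroblast growth factor, so cells outside the Shox2 domain may also meet it. The labels do not give the Cre or transgene state of the controls beyond wild type, nor whether the tissue of 1 embryo or of several went into a sample. The p-values therefore rest on the spread between samples, which may be technical.

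SOX proteins bind DNA through the HMG box, which bends the double helix. Sox9, of the E group of the family, carries a transactivation domain and is needed for mesenchymal cells to condense and become chondrocytes. Sox5 and Sox6, of the D group, carry no such domain of their own. They pair through coiled coils and help Sox9 to act on the enhancers of cartilage matrix genes such as Col2a1 and Acan. The hard palate forms its bone by intramembranous ossification, directly from mesenchyme and without a cartilage template, under the transcription factors Runx2 and Sp7. Loss of one copy of SOX9 in humans causes campomelic dysplasia, in which cleft palate is common.

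The start of the HMG box is shown because it encodes the domain through which all 3 proteins bind DNA. It was read from the longest coding transcript of each gene in GENCODE M21, an annotation of build GRCm38. It covers coding bases 1660 to 1749 of Sox5, 1855 to 1944 of Sox6 and 307 to 396 of Sox9. Capitals mark the bases that are the same in all 3 genes.
Sox5: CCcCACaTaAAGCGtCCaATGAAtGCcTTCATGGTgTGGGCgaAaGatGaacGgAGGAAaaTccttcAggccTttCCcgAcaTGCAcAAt
Sox6: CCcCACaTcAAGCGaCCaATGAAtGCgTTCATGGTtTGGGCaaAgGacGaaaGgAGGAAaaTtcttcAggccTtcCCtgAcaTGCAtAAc
Sox9: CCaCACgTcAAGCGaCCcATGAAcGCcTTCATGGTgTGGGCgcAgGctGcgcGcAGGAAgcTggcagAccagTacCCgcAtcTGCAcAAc

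Among windows of 90 bases aligned without a gap in all 3 genes, this one was picked for having the most bases in common. Its shares are therefore high by choice. In this window, 54 of the 90 bases were the same in all 3 genes. Sox5 and Sox6 shared 77 bases (85.6%), Sox5 and Sox9 shared 60 (66.7%) and Sox6 and Sox9 shared 59 (65.6%). Over the whole coding sequence, the longest identical run was 17 bases between Sox5 and Sox6, 18 between Sox5 and Sox9 and 12 between Sox6 and Sox9. The 18 bases that Sox5 and Sox9 shared lie in the window printed above, and the longest runs of the other pairs lie outside it (coding bases 967 to 983 of Sox5 with Sox6, and 736 to 747 of Sox6 with Sox9). Whether reads were assigned to the wrong member was not tested. The read length and the counter's strand setting are not given in the sources used here.

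Total counts ranged from 76417891 to 125996587 per library, and the lowest count of any member in any library was 323, for Sox5 in an E14.5 control. As a check on the labels, Fgf8 was at 0.316 ± 0.0938 CPM (counts scaled to a common library total with TMM factors, mean ± SD, n = 3) in E14.5 controls and 10.8 ± 0.275 CPM in E14.5 mutants. At E16.5 it was at 0.383 ± 0.110 and 16.1 ± 1.93 CPM, and every mutant library lay above every control at both ages. Shox2 was not called at E14.5 (edgeR adjusted p = 0.0960) and was higher in mutants at E16.5 (log2 fold change 0.65, edgeR adjusted p = 0.00548). Libraries 1 and 3 of the E16.5 mutants stood apart in 13 retinal marker genes (Sfrp1, which is high in all libraries, was left out after its values were seen). Their summed level was 229 and 133 CPM there, 31.9 CPM in E16.5 mutant library 2, 44.8 to 47.6 CPM in E16.5 controls and 29.2 to 43.1 CPM at E14.5. Results at E16.5 are therefore also given with library 2 as the only E16.5 mutant where they differ. In that setting the E16.5 call of Shox2 was lost (log2 fold change 0.33).

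Sox9 and Sox5 rose in the mutants at both ages, and Sox6 did not rise at either. By the fold changes fitted in edgeR, Sox9 was 2.84-fold higher at E14.5 and 4.36-fold higher at E16.5, and Sox5 was 6.52-fold and 3.42-fold higher. Sox6 was 1.35-fold lower at E14.5, a call that depended on single libraries, and was not called at E16.5. Calls come from edgeR's quasi-likelihood test, with p adjusted over all genes by the Benjamini-Hochberg method and a threshold of 0.05. By that rule 7.52% of 16650 genes were called at E14.5 (2.95% higher and 4.57% lower), and 27.9% of 17169 genes at E16.5 (12.2% higher and 15.7% lower). In bulk tissue, more cells that express a gene and more of its RNA per cell cannot be told apart.

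**Figure D1:**
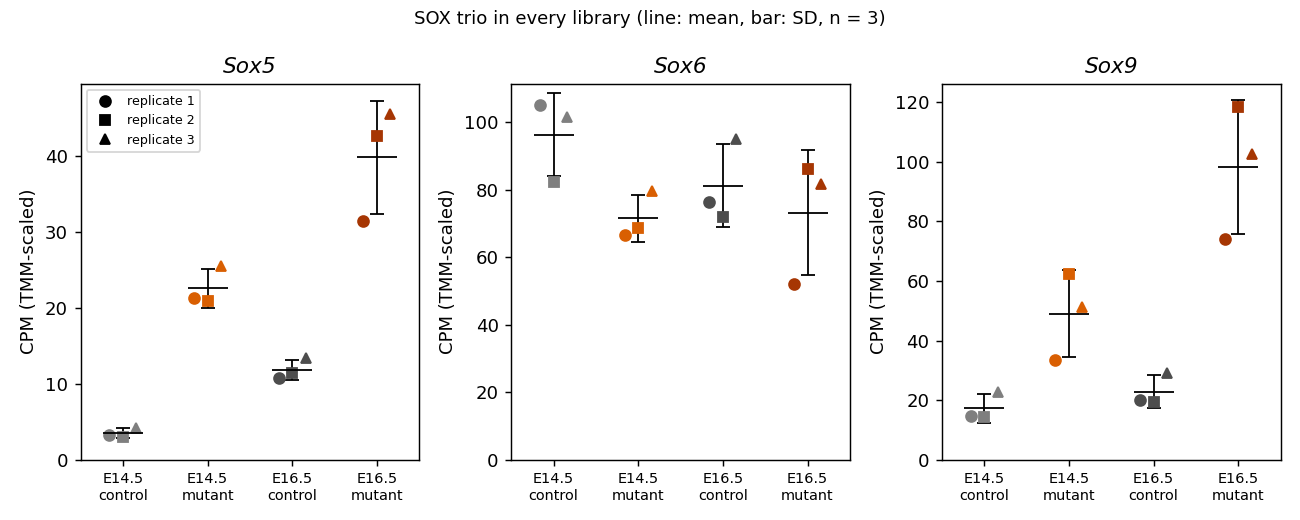
Level of Sox5, Sox6 and Sox9 in each of the 12 libraries, in CPM on a linear axis from 0, by age and genotype. Points are libraries (circle, square and triangle for replicates 1, 2 and 3), lines are group means and bars are the SD (n = 3). The mutant libraries lie above the controls of the same age for Sox5 and Sox9, while the Sox6 groups overlap at E16.5.

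Sox9, the member that starts chondrocyte formation, stood at 14.6, 14.4 and 22.8 CPM in E14.5 control libraries 1, 2 and 3, and at 33.5, 62.3 and 51.3 CPM in the mutants. The groups did not overlap, and the mutants spread more widely than the controls (49.0 ± 14.5 against 17.3 ± 4.77 CPM, n = 3 each). Of all genes tested at E14.5, 14.6% had mutant libraries entirely above the controls. The log2 fold change was 1.51 (SE 0.23, 95% interval 1.0 to 2.01, edgeR adjusted p = 0.00315).

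At E16.5, Sox9 stood at 20.2, 19.3 and 29.2 CPM in the controls and at 74.0, 118 and 103 CPM in the mutants. The lowest mutant was well above the highest control, and 18.3% of genes tested at this age had mutants entirely above the controls. The log2 fold change was 2.12 (SE 0.20, 95% interval 1.67 to 2.57, edgeR adjusted p = 0.000109). With mutant library 2 alone, which showed no retinal excess and had the highest Sox9, the log2 fold change was 2.38 (edgeR adjusted p = 1.75e-05). The lowest mutant value came from library 1, the one with the most retinal RNA.

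Sox5, a partner of Sox9 on cartilage enhancers, was low in E14.5 controls, at 3.29, 2.94 and 4.23 CPM. The mutants stood at 21.4, 20.9 and 25.6 CPM, a narrow group (22.6 ± 2.57 CPM, n = 3) far above the controls (3.49 ± 0.666 CPM). The log2 fold change was 2.70 (SE 0.14, 95% interval 2.38 to 3.02, edgeR adjusted p = 3.89e-06). Of the 16650 genes tested at this age, 64 were called with a rise of at least 2-fold, Sox5 and Sox9 among them.

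At E16.5, Sox5 stood at 10.8, 11.4 and 13.4 CPM in controls, while mutants stood at 31.4, 42.7 and 45.6 CPM, without overlap. Library 1 was the lowest mutant for Sox5, as it was for Sox9. The log2 fold change was 1.77 (SE 0.14, 95% interval 1.45 to 2.10, edgeR adjusted p = 4.68e-05), and 1.86 with library 2 as the only mutant (edgeR adjusted p = 1.31e-05). The rise was smaller than at E14.5. The difference between the ages was -0.95 on the log2 scale (SE 0.22, 95% interval -1.44 to -0.47, edgeR adjusted p = 0.00911), and 22.3% of all genes passed that test of a difference (12.4% in the same direction).

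For Sox9 the corresponding difference between the ages was 0.59 (SE 0.36, 95% interval -0.18 to 1.36, edgeR adjusted p = 0.267). The effect of the mutation on Sox9 was therefore not shown to differ between the ages, and the interval leaves room for a rise up to 1.36 log2 units larger at E16.5.

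Sox6, which is closely related to Sox5 and overlaps with it in function in cartilage, was the member with the least change. In E14.5 controls it stood at 105, 82.4 and 102 CPM, and in the mutants at 66.6, 68.6 and 79.5 CPM. All mutants were lower than all controls, as for 14% of genes tested at that age, but the highest mutant was within 3 CPM of the lowest control. The log2 fold change was -0.43 (SE 0.10, 95% interval -0.65 to -0.21, edgeR adjusted p = 0.0281). Leaving out control 1, control 3, mutant 1 or mutant 2 took the adjusted p to 0.0929, 0.0948, 0.120 and 0.104 in turn, all past the threshold, and a single fit of all 12 samples gave 0.173.

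Sox6 at E16.5 stood at 76.5, 71.9 and 95.2 CPM in controls, and the mutant values of 52.1, 86.1 and 81.6 CPM overlapped with these. The log2 fold change was -0.13 (SE 0.18, 95% interval -0.53 to 0.27, edgeR adjusted p = 0.631), so a fall of the size estimated at E14.5 lies within the interval. The negative sign rested on mutant library 1. Without it the log2 fold change was 0.06. The mutant effects at the 2 ages were not shown to differ for Sox6 (difference 0.28, 95% interval -0.24 to 0.79, edgeR adjusted p = 0.451).

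**Figure D2:**
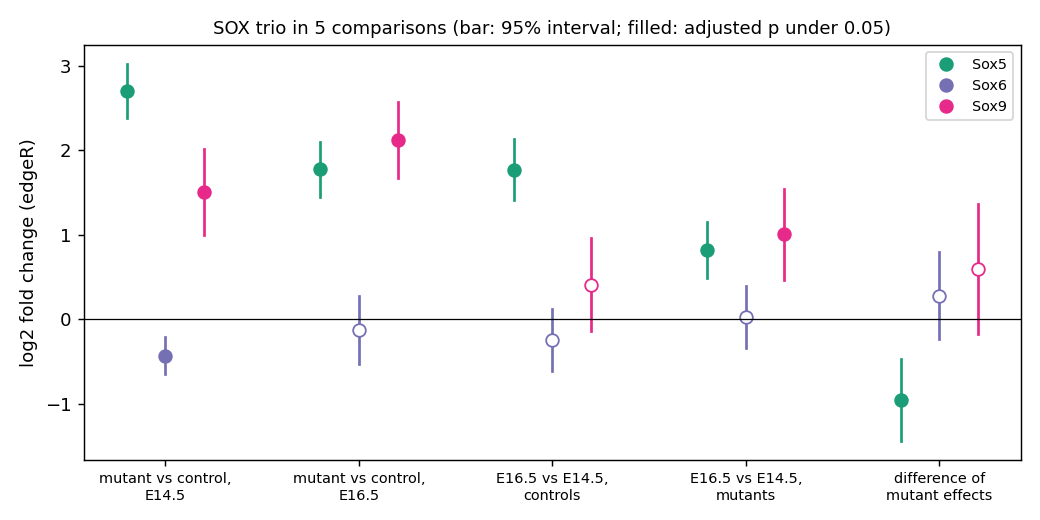
Log2 fold change of Sox5, Sox6 and Sox9 in edgeR for the 5 comparisons, with 95% intervals as bars and filled points where the adjusted p was under 0.05. Sox5 and Sox9 are filled and above 0 in both mutant comparisons, and the difference of the mutant effects is filled for Sox5, at -0.95.

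The comparison across ages sets the trio at E16.5 beside E14.5 in bulk tissue whose bone and epithelial markers also changed. From E14.5 to E16.5 controls, Ibsp fell from 1775 ± 204 to 330 ± 62.1 CPM. Krt5, a keratin gene of basal epithelium, rose from 334 ± 104 to 4119 ± 250 CPM. The part of such changes in the levels of the trio was not tested. In controls Sox5 rose with age, from 3.49 ± 0.666 to 11.8 ± 1.36 CPM, with all E16.5 libraries above all E14.5 libraries (log2 fold change 1.77, SE 0.17, edgeR adjusted p = 7.34e-07). Age was a large contrast, in which 66.4% of 17550 genes were called (34.3% higher, 32.1% lower) and in which the older controls lay entirely above the younger ones for 36.8% of genes and entirely below for 35.2%. Sox9 in controls went from 17.3 ± 4.77 to 22.9 ± 5.50 CPM, which overlapped and was not called (log2 fold change 0.41, 95% interval -0.14 to 0.96, edgeR adjusted p = 0.173). Without E14.5 control 3, the highest of its group, the log2 fold change was 0.66 (edgeR adjusted p = 0.0475). E16.5 control 3 was likewise the highest of its group, at 29.2 CPM. With a term for replicates numbered 3, the log2 fold change of Sox9 was 0.41 (edgeR adjusted p = 0.120). Sox6 in controls went from 96.4 ± 12.3 to 81.2 ± 12.3 CPM and was not called (log2 fold change -0.25, 95% interval -0.61 to 0.12, edgeR adjusted p = 0.212).

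In the mutants Sox9 and Sox5 both rose with age, in a contrast that called 51.6% of genes (27.2% higher). Sox9 went from 49.0 ± 14.5 to 98.3 ± 22.5 CPM (log2 fold change 1.0, SE 0.25, edgeR adjusted p = 0.00461). Sox5 went from 22.6 ± 2.57 to 39.9 ± 7.47 CPM (log2 fold change 0.82, SE 0.15, edgeR adjusted p = 0.000646). Neither pair of groups overlapped, which was so for 28.4% of genes whose older mutants all lay higher. Sox6 stood at 71.6 ± 6.96 and 73.3 ± 18.4 CPM and was not called (log2 fold change 0.03, 95% interval -0.33 to 0.40, edgeR adjusted p = 0.886).

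Ordered by mean level, Sox5 ran from E14.5 controls through E16.5 controls and E14.5 mutants to E16.5 mutants, and no neighbours in that order overlapped. Sox9 had the same order, but the control groups of both ages overlapped. For Sox6 every pair of neighbours overlapped, with E14.5 mutants lowest and E14.5 controls highest by mean. Thus the younger mutants had more Sox5 and more Sox9 RNA than the older controls, library by library. The comparisons with age and with genotype share libraries and are given side by side.

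The balance within the trio was read as a ratio of raw counts within each library, which cancels depth and scaling. Such a ratio depends on gene length, so only its change between groups can be read. There were 3.13, 3.57 and 4.16 Sox5 counts per 100 Sox6 counts in E14.5 controls and 32.1, 30.5 and 32.2 in E14.5 mutants. At E16.5 there were 14.1, 15.8 and 14 in controls and 60.3, 49.6 and 55.8 in mutants. The E14.5 mutants lay within 2 counts of each other, and all 4 groups were apart.

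Sox9 counts per 100 Sox6 counts were 13.9, 17.5 and 22.4 in E14.5 controls and 50.4, 90.8 and 64.5 in mutants. At E16.5 they were 26.4, 26.8 and 30.7 in controls and 142, 138 and 126 in mutants. The 3 E16.5 mutants, which ranged from 74.0 to 118 CPM for Sox9 itself, were closer together in this ratio. Mutant library 1 held both less Sox9 and less Sox6 than the other mutants, and its ratio was the highest of all 12 libraries.

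Against Runx2, the transcription factor that commits cells to the osteoblast fate, the shift in Sox9 was larger. There were 4.86, 5.58 and 6.99 Sox9 counts per 100 Runx2 counts in E14.5 controls and 22.1, 36.1 and 25.4 in mutants. At E16.5 there were 33.8, 28.9 and 39.7 in controls and 1200, 1150 and 1080 in mutants. E14.5 mutants and E16.5 controls overlapped in this ratio, while E16.5 mutants lay far above every other library. Both terms moved at E16.5, since Runx2 stood at 59.8, 66.6 and 73.6 CPM in controls and 6.17, 10.3 and 9.5 CPM in mutants.

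**Figure D3:**
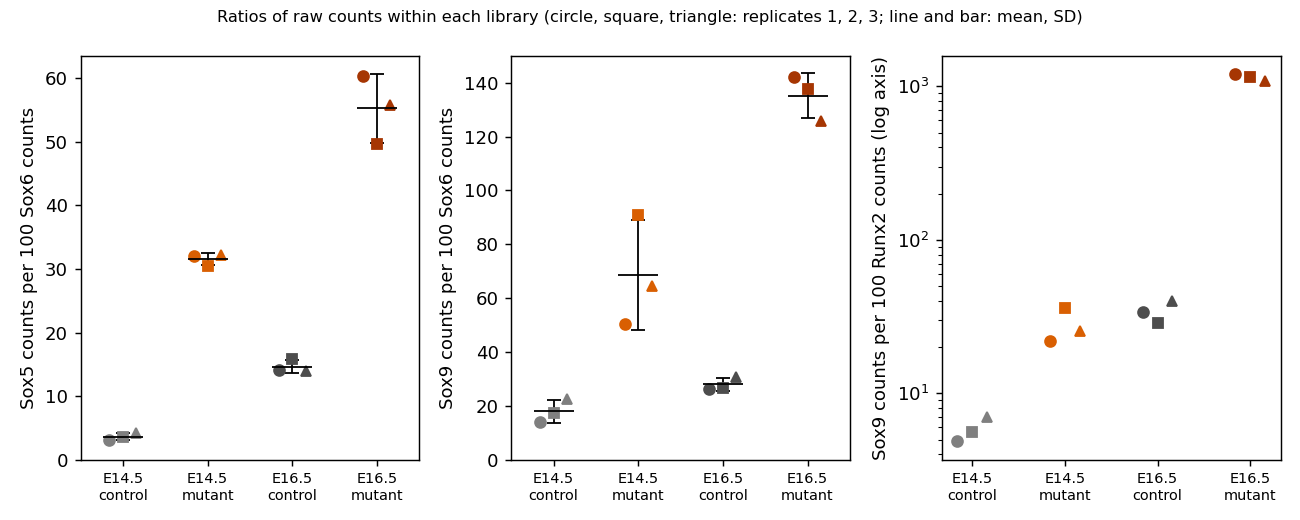
Ratios of raw counts within each library by age and genotype, for Sox5 per 100 Sox6 and Sox9 per 100 Sox6 on linear axes, with group mean and SD, and for Sox9 per 100 Runx2 on a log axis. Symbols mark replicates 1, 2 and 3. In the right panel the E16.5 mutants lie between 1080 and 1200, above the range of 4.86 to 39.7 over the other 9 libraries.

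More genes of the rest of the SOX family were called at E16.5 than at E14.5, as was so over all genes (27.9% against 7.52%). At E14.5, 2.95% of all genes were called higher and 4.57% lower. Of 16 other family genes, 14 were tested at E14.5, of which 0 were called higher and 2 lower (Sox7 and Sox18), with a median log2 fold change of -0.10 beside 0.01 over all genes. At an unadjusted p under 0.05 edgeR had 1 higher, Sox2. DESeq2 called 1 higher and 4 lower among them, and limma-voom called 0 higher. The E14.5 call of Sox18 was lost in each of the 6 fits that left out 1 library (edgeR adjusted p from 0.0534 to 0.192), and that of Sox7 in 4 of them. At E16.5, 15 were tested, with 6 higher and 1 lower and a median of 0.27 beside 0.01 over all genes. Over all genes at that age, 12.2% were called higher and 15.7% lower. With the replicate block, which pairs same-numbered libraries, 8 were called higher and 3 lower at E16.5.

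The closest relatives were looked at singly, outside the naming rule and after their values were seen. Sox13, the third D group gene, stood at 19.6 ± 0.666 and 18.7 ± 0.400 CPM in E14.5 controls and mutants and at 22.1 ± 0.336 and 19.5 ± 0.586 CPM at E16.5, and was not called at either age (edgeR adjusted p = 0.604 and 0.153). Sox10, an E group gene of neural crest and glia, was not called either (edgeR adjusted p = 0.0679 and 0.123).

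Sox8, the other E group gene, stood at 4.33, 5.18 and 5.30 CPM in E14.5 controls and 2.92, 3.45 and 3.92 CPM in mutants (edgeR adjusted p = 0.0621). At E16.5 it stood at 2.14, 1.62 and 1.94 CPM in controls and 7.64, 2.0 and 5.73 CPM in mutants. Its high values were in mutant libraries 1 and 3, those with the retinal excess, and library 2 lay within the controls. Sox8 was called higher at E16.5 (log2 fold change 1.47, SE 0.42, edgeR adjusted p = 0.0336), but with library 2 as the only mutant the log2 fold change was 0.08 (edgeR adjusted p = 0.895). In that same setting the log2 fold change of Sox9 was 2.38. The part of retinal tissue in the levels of either gene was not tested. The Sox8 call was also lost without control 1, 2 or 3 or mutant 1 or 3 (adjusted p from 0.0777 to 0.118).

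Sox7, Sox17 and Sox18, of the F group of blood vessel endothelium, were all called higher at E16.5. Sox18 went from 14.4 ± 1.39 to 20.7 ± 2.93 CPM and Sox17 from 3.13 ± 0.315 to 5.42 ± 0.645 CPM, with the mutants above the controls. The Sox7 call was lost without control 1 (edgeR adjusted p = 0.0711), control 2 (0.0707) or mutant 3 (0.0540), and the Sox18 call without control 2 (0.0590). With library 2 as the only mutant, none of these 3 was called (edgeR adjusted p from 0.0884 to 0.239). Sox11, which is high in progenitors and young neurons, went from 71.1 ± 18.4 to 130 ± 36.9 CPM and was called higher (edgeR adjusted p = 0.0170), though not without control 1 (0.0721) or control 2 (0.0809). Sox15 was called lower, from 6.36 ± 0.630 to 3.8 ± 0.371 CPM. Fewer family genes were called with library 2 as the only E16.5 mutant, and Sox15 was not among them (log2 fold change -0.59). Without control 1 there were 3 higher and without control 2 there were 2.

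Of 21 cartilage matrix genes listed as known or likely targets of the trio, all were measured and 20 tested. At E14.5, 5 were called higher (Col2a1, Col9a1, Col9a3, Acan and Lect1) and 2 lower (Col11a1 and Col11a2), with a median log2 fold change of 0.24 beside 0.01 over all genes. DESeq2 called 4 lower at this age. At E16.5, 12 were called higher (those 5 with Col9a2, Matn3, Matn4, Mia, Cytl1, Susd5 and Chadl) and the same 2 lower, with a median of 1.16 beside 0.01. The background shares are those given above for each age, and with library 2 as the only E16.5 mutant 9 were higher and 2 lower.

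Acan encodes aggrecan, the large proteoglycan of cartilage. It stood at 13.4, 9.57 and 13.4 CPM in E14.5 controls and 46.2, 45.1 and 45.0 CPM in mutants, then at 10.5, 11.2 and 12 CPM in E16.5 controls and 35.0, 43.9 and 42.4 CPM in mutants. Both rises were of similar size (log2 fold change 1.91 and 1.87, SE 0.12 and 0.10, edgeR adjusted p = 1.14e-05 and 7.82e-06), and their difference was -0.06 (95% interval -0.43 to 0.31). Col9a1, a chain of the collagen that coats cartilage fibrils, stood at 25.0, 11.5 and 17.8 CPM in E14.5 controls and 97.2, 96.1 and 91.5 CPM in mutants. At E16.5 it stood at 9.48, 11.4 and 9.93 CPM in controls and 58.8, 83.8 and 72.4 CPM in mutants, again with no overlap.

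Col2a1, the main fibrillar collagen of cartilage and a direct target of Sox9, behaved differently at the 2 ages. It stood at 57.8, 45.1 and 65.2 CPM in E14.5 controls and 86.5, 81.1 and 90.1 CPM in mutants (log2 fold change 0.62, SE 0.12, edgeR adjusted p = 0.0107). At E16.5 it stood at 24.5, 29.8 and 29.9 CPM in controls and 229, 369 and 200 CPM in mutants (log2 fold change 3.27, SE 0.22, edgeR adjusted p = 1.92e-05). The difference between the ages was 2.63 on the log2 scale (SE 0.28, edgeR adjusted p = 4.6e-05). The E14.5 call of Col2a1 was lost in a single fit of all 12 samples (edgeR adjusted p = 0.0861).

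Cytl1, a secreted protein of chondrocytes, had 24, 1 and 6 counts in E16.5 control libraries and 2377, 503 and 873 in mutants. Scaled for depth, E16.5 mutants 1, 2 and 3 stood at 20.4, 6.70 and 10.4 CPM for Cytl1. At E14.5 it was not called, with 0.439 ± 0.155 CPM in controls and 0.738 ± 0.195 CPM in mutants (edgeR adjusted p = 0.236). Col9a3 was called at both ages, and went from 18.3 ± 0.341 to 91.6 ± 14.1 CPM at E16.5. Lect1, which encodes chondromodulin, a cartilage protein that keeps vessels out, stood at 4.2 ± 1.25 and 7.01 ± 0.308 CPM at E14.5 and was called higher (edgeR adjusted p = 0.0421). That call was lost on leaving out any 1 of 5 of the 6 libraries, with adjusted p between 0.0591 and 0.139 in those fits. Among the E16.5 mutants, library 1 was highest and library 2 lowest for Cytl1, Susd5, Matn3, Matn4, Mia, Col9a2, Col9a3 and Lect1. The summed retinal genes had that order too. Acan, Col2a1, Col9a1 and Chadl, also called higher at that age, did not. The part of retinal tissue in these levels was not tested.

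The fibrillar collagen chains Col11a1 and Col11a2 went the other way. Col11a2 stood at 317, 237 and 279 CPM in E14.5 controls and 59.5, 67.4 and 63.6 CPM in mutants, and at 36.4, 42.6 and 40.1 CPM in E16.5 controls and 6.19, 9.97 and 7.99 CPM in mutants. Col11a1 fell from 635 ± 48.6 to 321 ± 19.8 CPM at E14.5 and from 227 ± 15 to 71.0 ± 19.4 CPM at E16.5. Both chains are also made by osteoblasts. Runx2, Sp7 and the bone matrix gene Ibsp were lower in the same libraries, and the part of bone cells in the fall of these collagens was not tested.

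Matn1 and Hapln1, which mark differentiated cartilage, were not called in either mutant comparison. Matn1 (matrilin 1) lay between 0.0223 and 0.653 CPM in all 12 libraries. At E16.5 its mutants, at 0.154 to 0.191 CPM, all lay above the controls, at 0.0223 to 0.135 CPM (log2 fold change 1.33, 95% interval -0.10 to 2.77, edgeR adjusted p = 0.152). Hapln1, the link protein that holds aggrecan to hyaluronan, lay between 18.0 and 48.3 CPM, with overlap at both ages (edgeR adjusted p = 0.337 and 0.246). At E16.5 it stood at 24.8, 27.1 and 30.6 CPM in controls and 48.3, 21.5 and 39.2 CPM in mutants, so mutants 1 and 3 lay above every control and mutant 2 below. Matn1 had 2 to 64 counts per library, so a change in it rests on few reads.

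**Figure D4:**
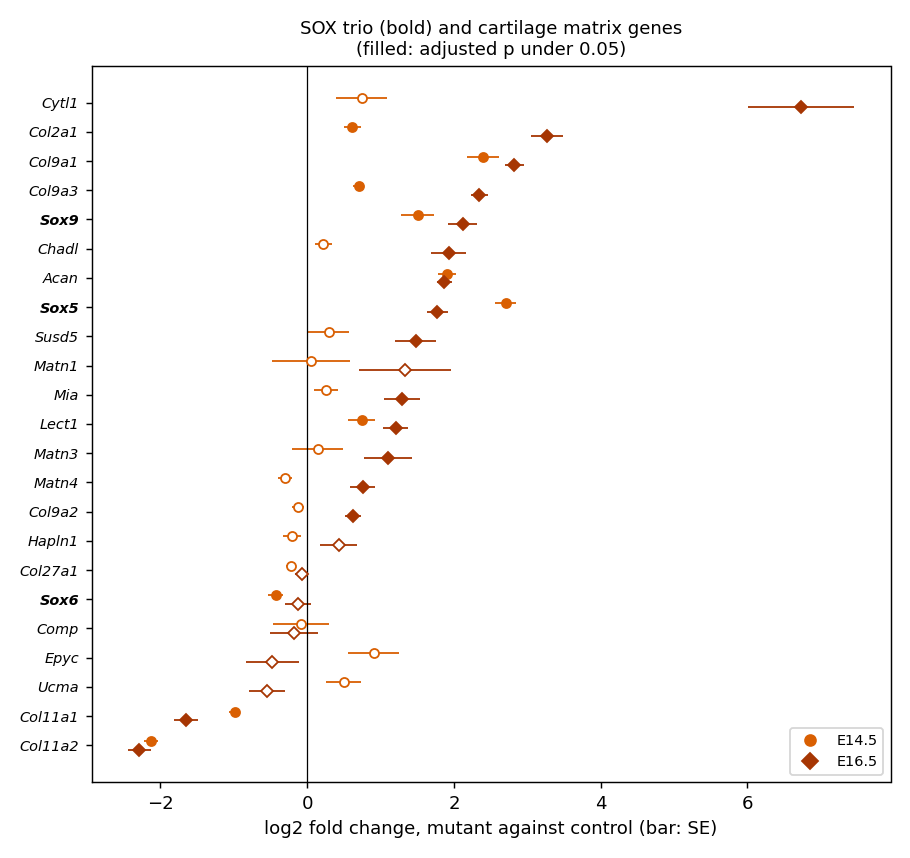
Log2 fold change of mutant against control for the SOX trio (bold) and the 20 tested cartilage matrix genes, with SE bars, circles for E14.5 and diamonds for E16.5. Filled points had an edgeR adjusted p under 0.05, and the collagen chains Col11a1 and Col11a2 lie on the far left while Cytl1 lies on the far right at E16.5.

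Partners and upstream regulators of the trio moved in both directions. More were called lower than higher at each age, as was so over all genes (4.57% against 2.95% at E14.5, 15.7% against 12.2% at E16.5). Of 19 such genes, 18 were tested at E14.5, with 1 higher and 3 lower (median -0.06 on the log2 scale), and 19 at E16.5, with 2 higher and 5 lower (median -0.07), beside a median of 0.01 over all genes at both ages. The 4 called at E14.5 and the 7 at E16.5 stand beside 7.52% and 27.9% of all genes. At E14.5 DESeq2 called 2 higher, and without mutant 1 there was 1 lower. Scx, a tendon factor that can be co-expressed with Sox9 in progenitors of tendon attachments, was called higher at both ages. It stood at 7.33, 6.18 and 6.65 CPM in E14.5 controls and 11.9, 11.6 and 10.2 CPM in mutants (log2 fold change 0.75, SE 0.11, edgeR adjusted p = 0.00265). At E16.5 it stood at 3.63, 3.15 and 3.07 CPM in controls and 4.86, 5.77 and 5.07 CPM in mutants (log2 fold change 0.69, edgeR adjusted p = 0.0101). It fell with age in both genotypes, unlike Sox5.

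Fgfr3, an FGF receptor of chondrocytes and osteoblasts, was called lower at both ages, from 78.1 ± 6.71 to 58.5 ± 4.73 CPM and from 141 ± 3.34 to 104 ± 9.04 CPM. Its call was lost without E14.5 mutant 1 (edgeR adjusted p = 0.0649) and, at E16.5, with library 2 as the only mutant (0.0609). Pth1r, the parathyroid hormone receptor, fell at E14.5 from 236 ± 23.9 to 155 ± 11.3 CPM and was not called at E16.5 (edgeR adjusted p = 0.197). Wwp2, whose gene hosts a microRNA induced by Sox9 and whose protein binds Sox9, went from 104 ± 7.15 to 87.6 ± 2.65 CPM at E14.5. That call (edgeR adjusted p = 0.0434) was lost in each of the 6 fits that left out 1 library (adjusted p from 0.0545 to 0.160). The coactivators Ep300 and Crebbp, through which Sox9 acts, were not called at either age (edgeR adjusted p from 0.228 to 0.818).

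At E16.5 Barx1, a homeobox factor of facial mesenchyme, was called higher, from 78.8 ± 6.17 to 114 ± 13.7 CPM. Barx2, a related factor that cooperates with the trio on Col2a1, was called lower, from 21.3 ± 1.31 to 14 ± 0.841 CPM. Ppargc1a, a coactivator, was lower as well, from 10.6 ± 0.620 to 6.16 ± 0.990 CPM. Gdf5, a joint growth factor, was at 1.95 ± 0.451 CPM in controls and 0.932 ± 0.252 CPM in mutants, and its call was lost in 4 of the 6 fits that left out 1 library. With library 2 as the only mutant, the Gdf5 call was lost too (log2 fold change -0.76). More partners were then called higher and fewer lower than in the main fit.

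Sox5, Sox6 and Sox9 act early in the chondrocyte's life, and late or hypertrophic cartilage has its own genes, many of them shared with bone. Of 9 such genes at E14.5, 0 were called higher and 5 lower (Ihh, Panx3, Runx3, Sp7 and Alpl), with a median log2 fold change of -0.88. At an unadjusted p under 0.05 edgeR had 2 higher, Mef2c and Mmp13. DESeq2 called 2 higher and limma-voom 0. The E14.5 call of Runx3 was lost without control 1 (edgeR adjusted p = 0.0729), control 3 (0.137), mutant 1 (0.136) or mutant 2 (0.0668). Of 8 tested at E16.5, 1 was called higher, Mmp13, and the same 5 lower, with a median of -0.43, beside 0.01 over all genes at both ages. The shares called over all genes were 2.95% higher and 4.57% lower at E14.5, and 12.2% higher and 15.7% lower at E16.5. Col10a1, the defining collagen of hypertrophic cartilage, had at most 0.237 CPM in any library. With library 2 as the only mutant, or without control 1, 2 or 3 or mutant 1 or 3, 3 were called lower. The E16.5 call of Runx3 was lost in each of those settings (edgeR adjusted p from 0.0518 to 0.135).

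Panx3, a channel protein of prehypertrophic chondrocytes and osteoblasts, fell from 191 ± 28.7 to 72.0 ± 1.74 CPM at E14.5 and from 30.3 ± 2.64 to 10.7 ± 1.62 CPM at E16.5. Ihh, the hedgehog signal of prehypertrophic cells, fell from 8.78 ± 2.11 to 4.0 ± 0.415 CPM at E14.5. At E16.5 it was at 2.94 ± 0.287 and 1.85 ± 0.408 CPM, close to the threshold (edgeR adjusted p = 0.0487), and 11 of 15 other settings did not call it, the replicate block among them (0.0542). Mmp13, a collagenase, was at 6.59 ± 0.567 CPM in E16.5 controls and 9.88 ± 1.70 CPM in mutants (edgeR adjusted p = 0.0141, and 0.0616 without control 1).

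Among 8 osteoblast transcription factors, 0 were called higher and 4 lower at E14.5 (Runx2, Sp7, Dlx3 and Dlx5, with a median of -0.45). At an unadjusted p under 0.05 edgeR had 0 higher, and DESeq2 and limma-voom called 0. At E16.5, 1 was higher (Msx2) and 3 lower (Runx2, Sp7 and Dlx5, with a median of 0.09), beside 0.01 over all genes at both ages. With the replicate block, 2 were called higher at E16.5. Over all genes in the main fits, 2.95% were called higher and 4.57% lower at E14.5, and 12.2% and 15.7% at E16.5. Sp7, the osteoblast factor downstream of Runx2, stood at 253, 215 and 338 CPM in E14.5 controls and 97.4, 117 and 104 CPM in mutants. At E16.5 it stood at 41.9, 44.0 and 40.5 CPM in controls and 5.94, 8.42 and 8.09 CPM in mutants. Library 1, the lowest E16.5 mutant for each of the trio, was also the lowest for Runx2 and Sp7. The Msx2 call was lost with library 2 as the only mutant (edgeR adjusted p = 0.0623) and without control 1 (0.0553) or control 2 (0.0518).

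Sox5 and Sox9 are also made outside cartilage, so the markers of other cells are given beside them. Neuron genes summed to 384, 84.7 and 234 CPM over 13 genes in E16.5 mutants 1, 2 and 3 and to 80.2 to 81.2 CPM in controls, and 10 of 13 were called higher. Retina genes were called higher in 9 of 14 cases at E16.5, an age at which 12.2% of all genes were called higher. At E14.5 Crx did not pass the filter on low counts and was at 0 in all mutants. Library 2, in which these sums lay near or below the controls, had Sox9 at 118 CPM and Sox5 at 42.7 CPM, above every control. It is a single library, and the part of retinal or neuronal cells in the levels of Sox5 and Sox9 was not tested. Schwann cell and glia genes, which can go with Sox10 and Sox9, summed to 83.4 to 94.7 CPM in E14.5 controls and 79.8 to 91.0 CPM in mutants, and to 229 to 245 CPM and 169 to 207 CPM at E16.5.

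Nasal and glandular epithelium, where Sox9 is also made, summed over 10 genes to 130 to 200 CPM in E14.5 controls and 174 to 224 CPM in mutants. At E16.5 the sums were 1300 to 1404 CPM in controls and 450, 822 and 735 CPM in mutants 1, 2 and 3. Between genotypes at E16.5 these markers were thus lower in the group with more Sox9. Within the E16.5 mutants they ranked as Sox9 did, which stood at 74.0, 118 and 103 CPM in libraries 1, 2 and 3. Oral and basal epithelium summed to 1057 to 1736 and 1750 to 1837 CPM at E14.5, and to 11198 to 11649 and 7004 to 11878 CPM at E16.5. The melanocyte, skeletal muscle and erythroid sums overlapped between genotypes at E14.5, and the tooth germ sums at E16.5 were 212 to 233 CPM in controls and 265 to 306 CPM in mutants. The part of these cells in the levels of the trio was not tested.

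By profile, the genes most like each member were those with the smallest root mean square difference of mean-centred log2 CPM over the 12 libraries, among 12848 genes. For Sox5 these were Trp53 (0.33), Prrx1 (0.34), Tbx3 (0.37), Cdk6 (0.40) and Dio2 (0.41). For Sox9 they were C1ql3 (0.36), Prrx1 (0.38), Cdk4 (0.39), Dio2 (0.41) and Myc (0.43). Prrx1, a homeobox gene of limb bud and facial mesenchyme, and Dio2, a thyroid hormone activating enzyme, stood in both. Sox9 ranked 9 among the genes most like Sox5, and Sox5 ranked 16 for Sox9.

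Sox6 had other near profiles, among them Myo10 (0.11), Auts2 (0.14) and Myh9 (0.15). Its differences are smaller because Sox6 itself varied little, so the values cannot be compared between members. Sox6 ranked 10692 for Sox5 and 10183 for Sox9. The likeness is a description over 12 libraries that share their groups, and the libraries' depth and ages are common to all profiles.

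The authors' deposited table of their DESeq2 comparisons holds the same 3 genes. It lists a log2 fold change of 2.26 (SE 0.12) for Sox5, -0.39 (SE 0.10) for Sox6 and 0.70 (SE 0.16) for Sox9 at E14.5. For Sox9 the authors' deposited table thus gives a smaller value than the 1.51 found here, with an adjusted p of 0.000291, while the counts of the 3 mutants were 2710, 5061 and 4326 against 1433, 1855 and 1939 in larger control libraries. Whether the fold changes in the authors' deposited table were shrunk towards 0 is not given in the sources used here, so the sizes may not be alike in kind. At E16.5 the authors' deposited table lists 1.71 for Sox5, -0.12 for Sox6 and 2.01 for Sox9. Its calls for the trio have the same direction as those here, Sox6 at E16.5 uncalled in both (adjusted p = 0.643 in the authors' deposited table).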

How the data were processed

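RNA from 12 palate samples was sequenced. Per the submitters' processing notes, the authors used HISAT2, featureCounts and DESeq2 with mouse build mm9. Versions, annotation and strand setting are not given in the sources used here. The authors deposited raw counts per gene for each sample, and a table of log2 fold changes with their p-values from DESeq2. In deposited tables of the whole series, 24 sample columns were left unused.

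Counts were fitted with edgeR 4.0.16 in R 4.3.3 (TMM factors, filterByExpr, quasi-likelihood test, Benjamini-Hochberg adjustment over all genes, called under 0.05). Genotype was compared within each age on 6 samples. Age, and the difference of the mutant effect between the ages, came from 1 fit of 12 samples. Intervals cover 95%. CPM use TMM factors over 12 libraries. The likeness of profiles used log2 CPM with a prior count of 2. Rows with date-like names (27, holding 0.251% of counts) stayed in the fits and are not named.

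The members and lists were chosen with earlier results of these data known. Named were the 3 members, Fgf8 and Shox2. For each list and age, up to 4 called genes each way with the largest change (mean log2 CPM of at least 0) were named, or the 2 highest where none was called. For each member, the 5 genes with the closest profile were chosen, and for each list of other cells its 2 highest genes could be. Sox2, Sox3, Sox10, Sox12, Sox13, Ep300, Crebbp, Col10a1, Mef2c and genes given only in a count were named after their values were seen. Some genes that these rules choose are not reported here, and 1 of them was taken off its list after its values were seen. Same-numbered samples deviated together over 13463 genes, with r of 0.196, 0.241 and 0.695 for the E16.5 groups and 0.149, 0.236 and 0.560 for controls across ages, above the limit of 0.1. The scripts were tested on simulated data. Alternatives were DESeq2 1.42.0, limma-voom (limma 3.58.1), other scaling and filters, a replicate block, a term for replicates numbered 3 and single libraries left out. The counts of list genes under them were added after seeing the data. Sequences came from GENCODE M21 transcripts.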

Additional observations from a re-analysis of the deposited data

Results flagged for a closer look

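The mutant effect differed between the ages, by edgeR's interaction term, for Sox5, whose rise was smaller at E16.5 by 0.95 on the log2 scale (difference -0.95, adjusted p = 0.00911, every mutant above every control at both ages). In the values below, a positive difference means that the log2 fold change was higher at E16.5.

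Among SOX relatives the difference was 1.96 for Sox8, 1.0 for Sox7, 0.92 for Sox17 and 0.79 for Sox18. In all, 7 of 15 relatives were called with a positive difference, Sox3, Sox10 and Sox12 being the other 3, and 1 with a negative one, Sox2 (-0.86, adjusted p = 0.0301). Over all genes, 9.97% had a positive call and 12.4% a negative one. With library 2 as the only E16.5 mutant, the difference for Sox8 was 0.62 and not called (adjusted p = 0.191).

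Among cartilage matrix genes it was 5.96 for Cytl1, 2.63 for Col2a1, 1.62 for Col9a3 and -0.69 for Col11a1. The call for Col11a1 was lost in 7 of the 12 fits that left out 1 library. Among partners of the trio it was 0.42 for Pth1r and -0.76 for Barx2. The Pth1r call was lost without E14.5 control 1 (adjusted p = 0.0636).

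Among hypertrophic and osteoblast genes the difference was -2.20 for Runx2, -1.60 for Dlx5, -1.16 for Sp7, 0.76 for Alpl and 1.24 for Dlx3. Runx2, Dlx5 and Sp7 thus fell further at E16.5 than at E14.5, each relative to its controls.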

How the results depend on the processing

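The calls of Sox5 and Sox9 between genotypes were kept in all 15 alternatives at E14.5 and all 16 at E16.5, with log2 fold changes of 2.59 to 2.86 and 1.67 to 1.91 for Sox5 and 1.30 to 1.76 and 1.97 to 2.38 for Sox9. Sox6 at E14.5 lost its call in the fit of all 12 samples (-0.43) and ranged from -0.54 to -0.36 with single libraries left out. At E16.5 it ranged from -0.26 to 0.059 in such fits and reversed to 0.092 with library 2 as the only mutant, a fit that takes the spread of the lone library from the other groups. With age in mutants it ranged from -0.067 to 0.25 with single libraries left out, and was -0.0067 in limma-voom and 0.29 with library 2 as the only E16.5 mutant. Sox9 with age in controls ranged from 0.17 to 0.66 with single libraries left out.

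Over all genes, 1252 were called at E14.5. DESeq2 called 2120, the replicate block 3155, a term for replicates numbered 3 gave 2938, and single libraries left out gave 526 to 1412. At E16.5, 4793 were called, with 2781 to 5486 when 1 library was left out and 2496 with library 2 as the only mutant. At E14.5 the replicate block and the term for replicates numbered 3 each called 2 higher and 4 lower among other SOX genes and 4 cartilage matrix genes lower, and the block called 2 partners higher and 6 lower. The difference between the ages called 3921, 6055 with the replicate block and 2017 with library 2 as the only E16.5 mutant. Pairing by number was not met at E14.5 (r = 0.0783, 0.127 and 0.559) or for mutants across ages (0.0566, 0.0865 and 0.610), and the block changed no call of Sox5, Sox6 or Sox9. It changed that of Ihh at E16.5 (adjusted p = 0.0542). The causes of these changes were not tested.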
